A study of Mus musculus with 28 samples.

Results

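Small leucine-rich proteoglycans are secreted matrix proteins built from leucine-rich repeats, most of which carry chondroitin, dermatan or keratan sulphate chains. They bind fibrillar collagens, set how collagen fibrils assemble, and hold growth factors such as the TGF-beta and BMP ligands in the matrix. They are known as abundant products of cartilage, bone, tendon and vessel wall. The 10 genes described here were chosen by symbol from the table of 54429 gene identifiers. They are the class I genes Bgn (biglycan), Dcn (decorin) and Aspn (asporin), the class II genes Fmod (fibromodulin), Lum (lumican), Prelp and Omd (osteomodulin), the class III genes Ogn (osteoglycin) and Epyc (epiphycan), and the class V gene Podn (podocan).

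RNA was sequenced from O9-1 cells, a mouse line of cranial neural crest, the embryonic population that forms facial cartilage, bone and vascular smooth muscle. The line was grown in 4 states at 21% O2 (normoxic, 4 libraries a state) or 0.5% O2 (hypoxic, 3 libraries a state), so the 28 libraries form 8 groups. Proliferating cells were kept in STO-conditioned medium with 15% serum, 25 ng/ml bFGF and 5 ng/ml LIF. Chondrocyte cultures had 3 days of osteoblast medium and then 7 days as micromasses on matrigel with 5% serum, 10 ng/ml TGF-beta3, 50 ng/ml BMP-2 and 0.1 µM dexamethasone. Osteoblast cultures had 10 days in 10% serum with beta-glycerophosphate, 0.1 µM dexamethasone and 100 ng/ml BMP-2. Smooth muscle cultures had 3 days in DMEM with 10% serum. Medium, culture form and time therefore change together with the state. All libraries come from 1 cell line, and the labels do not say that libraries of a group came from separate cultures, so p-values measure the spread between these libraries. Levels are bulk averages, in which fewer cells of a type and less RNA per cell cannot be told apart.

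Library totals ran from 19869271 to 64693346 counts. Levels are given as CPM, the usual counts-per-million unit, after scaling by trimmed mean of M values (TMM). The 3 hypoxic smooth muscle libraries stood apart: mitochondrial ribosomal RNA took 11.6 to 13.3% of their counts, against at most 0.0889% in the other 25 libraries. Their TMM factors were 0.505 to 0.533, against 0.901 to 1.29 elsewhere. Scaling by library size alone put the median gene at −1.35 (log2) against hypoxic proliferating cells and at −1.49 against normoxic smooth muscle. TMM put it at −0.07 and −0.12. Genes of the marker and other lists were tested and summed with TMM only. Results of the members in the hypoxic smooth muscle group are also given with library size alone where it turns them. The label of this group was not borne out by its markers. The 9 smooth muscle markers summed to 96.8 to 121 CPM there, with Myocd at 0, against 3610 to 4080 CPM in normoxic smooth muscle and 197 to 202 CPM in hypoxic proliferating cells. They were as high in normoxic osteoblast cultures (3680 to 5200 CPM) as in normoxic smooth muscle. The 10 neural crest markers summed to 2930 to 3670 CPM in it and to 855 to 1050 CPM in normoxic smooth muscle. Crabp1 alone made up 82.6% of that sum in hypoxic smooth muscle, and of the 7 neural crest markers tested between these groups 2 were higher and 4 lower in hypoxia (median log2 −0.57). It is called below by its culture condition. The 14 chondrocyte markers were highest in normoxic chondrocyte cultures (7760 to 16100 CPM). The 10 osteoblast markers, by contrast, summed to 48800 to 58000 CPM in normoxic chondrocyte and to 10900 to 16800 CPM in normoxic osteoblast cultures, with Col1a1 as their leading gene in both. Normoxic osteoblast replicate 4 also stood apart: the chi-square per degree of freedom over all genes was 91.1 to 97.1 between it and replicates 1 to 3, and 2.89 to 3.88 among those 3.

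Several of these genes lie side by side in the mouse genome (GRCm38 coordinates, GENCODE M21). Aspn (chr13:49544443-49567565), Omd (chr13:49582462-49592822) and Ogn (chr13:49608046-49624501) follow each other on the plus strand, with gaps of 14.9 and 15.2 kb and no other coding gene between them. Dcn (chr10:97479609-97518143), Lum (chr10:97565128-97572703) and Epyc (chr10:97644068-97682454) form a second run on the plus strand, with no other coding gene between Dcn and Lum and 1, Kera, between Lum and Epyc. Prelp (chr1:133910304-133921414, minus strand) and Fmod (chr1:134037254-134048277, plus strand) are 115.8 kb apart. Bgn (chrX:73483602-73495933) and Podn (chr4:108014791-108096445, minus strand) stand alone. On the opposite strand, Cenpp spans Aspn, Omd and Ogn and shares 7 exon bases with Aspn, while Gm15851 shares 350 exon bases with Prelp. Gm10754, also on the opposite strand, shares 1041 exon bases with Epyc. Scp2 overlaps Podn on the same strand but shares no exon base with it. The library kit marks strand, but whether counting used it is not given in the sources used here. Cenpp held 8785 counts and Gm15851 held 1429 in all 28 libraries, against 900354 for Aspn and 128254 for Prelp. Gm10754 held no count and Epyc held 80.

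RefSeq (GRCm38.p6) start sites were found for 8 of the 10 genes; Dcn and Lum had none. The 250 bases before the start are shown for the chr13 trio, whose members were all highest in osteoblast cultures, and for Fmod, the member with the widest range of levels. Capitals mark matches, on either strand, to TATAAA, to the hypoxia response core ACGTG or GCGTG, or to TGTGGT, a core bound by RUNX factors.
Aspn (chr13:49544193-49544442, plus strand): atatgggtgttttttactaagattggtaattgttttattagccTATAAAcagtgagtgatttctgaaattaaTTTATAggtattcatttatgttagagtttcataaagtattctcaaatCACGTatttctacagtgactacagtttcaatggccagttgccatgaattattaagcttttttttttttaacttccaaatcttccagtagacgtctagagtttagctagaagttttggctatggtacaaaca
Omd (chr13:49582212-49582461, plus strand): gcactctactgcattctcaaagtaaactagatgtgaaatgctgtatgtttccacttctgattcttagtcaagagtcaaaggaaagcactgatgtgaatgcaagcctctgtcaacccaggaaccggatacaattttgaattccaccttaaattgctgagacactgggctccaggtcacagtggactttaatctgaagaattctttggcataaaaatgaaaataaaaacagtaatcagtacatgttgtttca
Ogn (chr13:49607765-49608014, plus strand): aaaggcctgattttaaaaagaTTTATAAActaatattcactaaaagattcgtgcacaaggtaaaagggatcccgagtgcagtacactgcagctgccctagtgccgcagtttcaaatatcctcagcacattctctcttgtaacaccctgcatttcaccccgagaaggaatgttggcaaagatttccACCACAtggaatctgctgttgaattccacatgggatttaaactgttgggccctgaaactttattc
Fmod (chr1:134037004-134037253, plus strand): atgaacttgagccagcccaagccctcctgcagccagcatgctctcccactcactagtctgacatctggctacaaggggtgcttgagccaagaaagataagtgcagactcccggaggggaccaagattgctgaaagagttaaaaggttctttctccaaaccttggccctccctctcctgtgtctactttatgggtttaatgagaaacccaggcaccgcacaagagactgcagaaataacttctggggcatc
Aspn held 2 matches to TATAAA, at 207 to 202 and 178 to 173 bases before the start, and 1 to ACGTG in reverse complement at 131 to 127. In Ogn, 2 overlapping matches to TATAAA ran from 229 to 222 bases before the start, and TGTGGT stood in reverse complement at 65 to 60. The windows of Omd and Fmod held no match to these letters. TATAAA was found in 2 of the 8 genes and in 12.4% of 32851 RefSeq windows of this length, and TGTGGT in 1 gene and 14% of windows. The hypoxia core was found in 4 genes (Aspn, Bgn, Epyc and Podn) and in 38.6% of windows. A match describes the letters and is not a measured binding site.

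**Figure D1:**
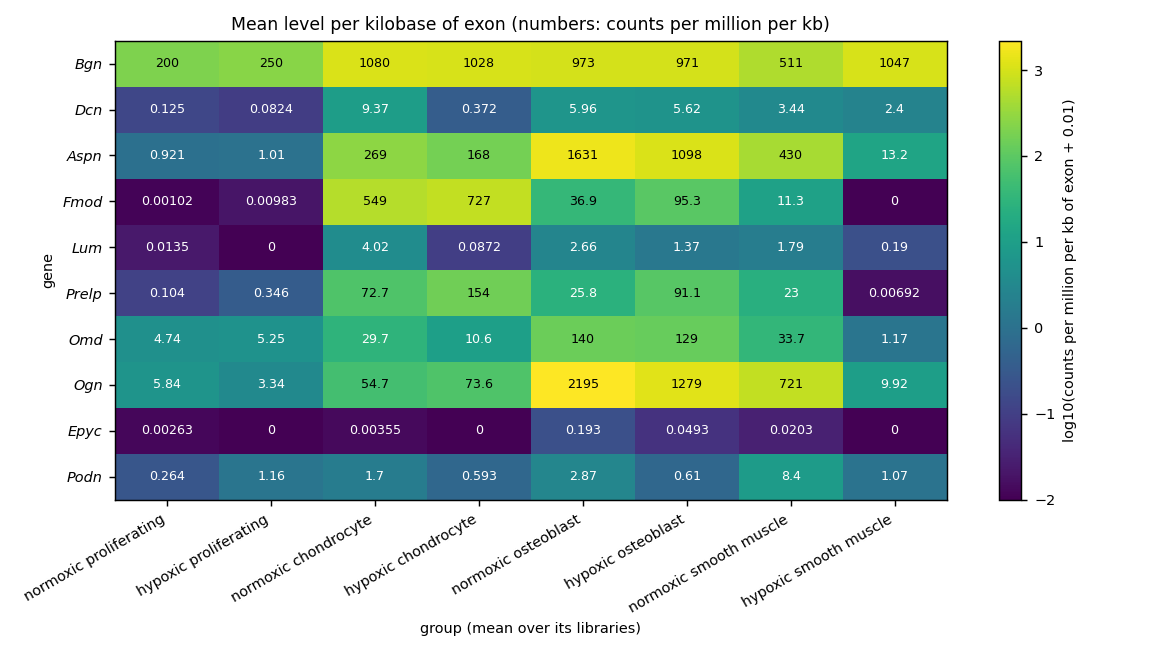
Mean level of each gene (rows) in each group (columns), in CPM per kilobase of exon, with colour on a log10 scale. Bgn lies between 200.5 and 1080 in every group, while Fmod runs from 0 in hypoxic smooth muscle to 727 in hypoxic chondrocyte cultures.

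Per kilobase of exon, Bgn was the leading member in proliferating cells, at 200.5 CPM per kb in normoxia and 250.4 in hypoxia. The next members there were Ogn (5.84) and Omd (4.74) in normoxia, and Omd (5.25) and Ogn (3.34) in hypoxia. Normoxic chondrocyte cultures held mostly Bgn (1080), Fmod (549) and Aspn (269). In normoxic osteoblast cultures Ogn (2195) and Aspn (1631) stood above Bgn (973). Normoxic smooth muscle cultures held Ogn (721), Bgn (511) and Aspn (430). In hypoxic smooth muscle Bgn stood at 1047 CPM per kb and the next member, Aspn, at 13.2. Dcn, one of the best known members in connective tissue, reached no more than 9.37 CPM per kb, in normoxic chondrocyte cultures, where it held 54.7 CPM. The order of members depends on the exon length used, the union of all annotated exons. That length was 6099 bases for Bgn and 5838 for Dcn, against 2566 for Ogn and 2354 for Aspn. In CPM, Bgn (mean 5935) and Ogn (5631) overlapped in normoxic osteoblast libraries, with Aspn at 3840. In normoxic smooth muscle Bgn (3114) stood above Ogn (1850).

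**Figure D2:**
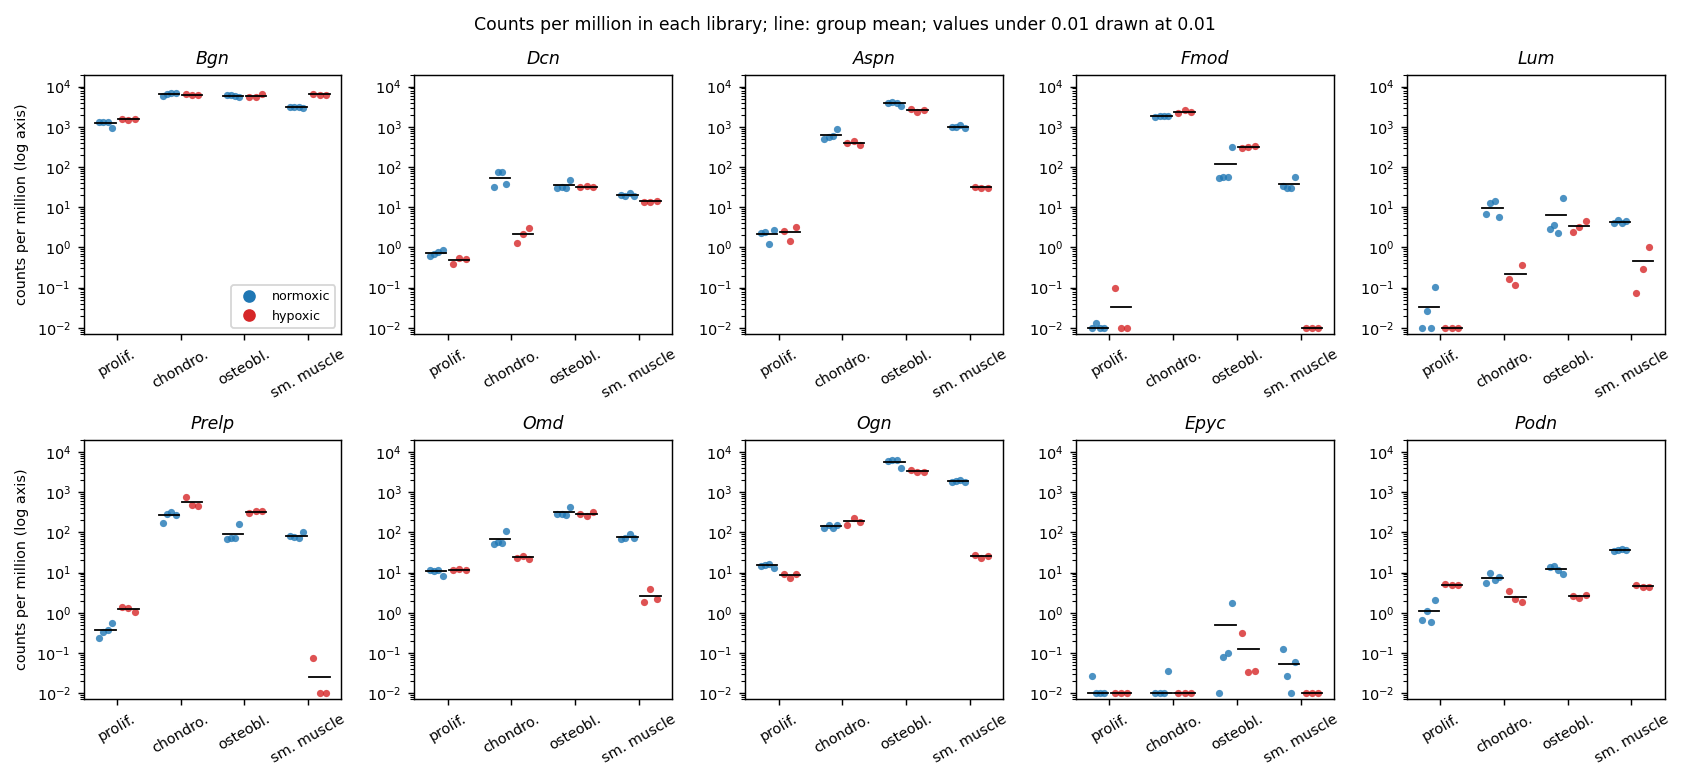
Level in CPM (log axis) of the 10 genes in each of the 28 libraries, by state, with normoxic libraries in blue, hypoxic ones in red and group means as lines. Bgn was high in every library, and Fmod and Prelp in hypoxic smooth muscle sit at or near 0.

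Bgn, which binds collagen and TGF-beta, was expressed in all libraries. Its level was 1301, 1344, 1284 and 963 CPM in the 4 normoxic proliferating libraries and 1544, 1500 and 1537 CPM in the hypoxic ones. It was 5990, 6456, 7072 and 6833 CPM in normoxic chondrocyte cultures and 6071, 6103, 5934 and 5631 CPM in normoxic osteoblast cultures. In normoxic smooth muscle it was 3124, 3112, 3203 and 3016 CPM. The proliferating and normoxic smooth muscle groups each stood apart from the rest, and the 5 highest groups, from 5924 to 6587 CPM on average, overlapped their neighbours in order. One of these 5 was hypoxic smooth muscle, at 6524, 6314 and 6320 CPM, 2.05-fold above normoxic smooth muscle (log2 1.10, SE 0.0635, adjusted p = 5.44e-10). Folds are ratios of mean CPM, scaled over the 28 libraries, while log2 values come from the fit of the groups compared, so the fold and the log2 value of a gene need not match exactly. With library size alone that difference turned to −0.27 (adjusted p = 0.00094).

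Dcn, the collagen-binding relative of Bgn that also holds TGF-beta, was far lower. It stood at 0.619, 0.689, 0.762 and 0.840 CPM in normoxic proliferating libraries. Normoxic chondrocyte libraries held 32.5, 74.5, 74.7 and 37.3 CPM, so replicates 2 and 3 stood well above 1 and 4. The 3 hypoxic chondrocyte libraries held 1.26, 2.17 and 3.09 CPM, with no overlap. Dcn was thus 25.2-fold lower in hypoxic chondrocyte cultures (log2 −4.66, SE 0.516, adjusted p = 0.00171). In osteoblast cultures it was 29.6, 31.9, 29.4 and 48.4 CPM in normoxia and 32.0, 34.5 and 31.9 CPM in hypoxia, and these ranges overlapped (log2 −0.09, SE 0.176, adjusted p = 0.694). Smooth muscle cultures held 18.8 to 22.9 CPM in normoxia and 13.7 to 14.6 CPM in hypoxia.

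Aspn, a collagen-binding protein that restrains TGF-beta and BMP signals, rose from very low to very high levels. Proliferating libraries held 1.19 to 2.70 CPM in normoxia and 1.44 to 3.18 CPM in hypoxia, with overlap (log2 0.19, SE 0.304, adjusted p = 0.609). Normoxic osteoblast libraries held 3995, 4041, 3977 and 3345 CPM, and hypoxic ones 2781, 2340 and 2630 CPM. The groups did not overlap, and the hypoxic level was lower by 0.57 on the log2 scale (log2 −0.57, SE 0.109, adjusted p = 0.00191). In smooth muscle conditions the normoxic libraries held 966, 1008, 1122 and 950 CPM, and hypoxic ones 32.8, 29.8 and 30.9 CPM. Normoxic chondrocyte libraries held 510, 567, 579 and 875 CPM, and hypoxic ones 392, 445 and 350 CPM. The 6 differentiated groups therefore stood in an order without overlap, from normoxic osteoblast down to hypoxic smooth muscle, and the proliferating groups lay below all of them.

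Fmod, a keratan sulphate proteoglycan that guides collagen fibril assembly in tendon and cartilage, was nearly absent from proliferating cells. A single count was seen in the 4 normoxic proliferating libraries together and 3 counts, all in replicate 1, in the hypoxic ones. Normoxic chondrocyte libraries held 1731, 1909, 1813 and 1810 CPM, and hypoxic ones 2169, 2680 and 2358 CPM, with no overlap (log2 0.40, SE 0.0854, adjusted p = 0.00627). In a single fit over all 28 libraries this call was lost (adjusted p = 0.609). The ratio of normoxic chondrocyte to proliferating cells was 308000, with a 95% interval of 55200 to 12100000 from an exact binomial calculation. Such intervals pool the counts of a group, so they cover counting error only and leave out the spread between libraries. Reads copied by PCR are not independent molecules, so the counting error may be larger too. In osteoblast cultures the normoxic libraries held 54.3, 56.8, 57.5 and 319 CPM, and hypoxic ones 298, 314 and 334 CPM. Replicate 4 of the normoxic group thus lay within the hypoxic range. Normoxic smooth muscle libraries held 32.9, 30.6, 29.7 and 56.2 CPM, while no count was found in the 3 hypoxic ones. That makes Fmod at least 424-fold lower in hypoxic smooth muscle, against a floor of 3 counts over the group.

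Prelp, a heparin- and collagen-binding member found in cartilage and basement membranes, shared some of this pattern. Normoxic chondrocyte libraries held 171, 283, 324 and 273 CPM and hypoxic ones 744, 490 and 442 CPM. These groups did not overlap, and the hypoxic level was 2.12-fold higher (log2 1.08, SE 0.257, adjusted p = 0.0261). The call was lost without normoxic chondrocyte replicate 2 or 4 or hypoxic chondrocyte replicate 1 or 2 (adjusted p up to 0.0755), and without the filter on low counts (adjusted p = 0.0773). Normoxic osteoblast libraries held 68.8, 73.5, 72.5 and 158 CPM, and hypoxic ones 305, 336 and 347 CPM, a 3.53-fold difference (log2 1.82, SE 0.301, adjusted p = 0.00149). Prelp was also 3.32-fold higher in hypoxic than in normoxic proliferating cells, though both were low, at 1.03 to 1.43 and 0.242 to 0.560 CPM. Under smooth muscle conditions, normoxic libraries held 81.9, 75.9, 73.9 and 101 CPM. Hypoxic ones held 1 count in all, a ratio of 2840 with a 95% interval of 509 to 112000.

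Lum, a keratan sulphate proteoglycan best known from cornea and skin, was low throughout. It reached 6.76, 12.8, 14.1 and 5.75 CPM in normoxic chondrocyte libraries, where hypoxic ones held 0.161, 0.118 and 0.361 CPM. The difference was 46.1-fold (log2 −5.47, SE 0.511, adjusted p = 0.000125), on 1090 counts against 19. Without hypoxic chondrocyte replicate 3 it was −6.08 (log2). Normoxic osteoblast libraries held 2.93, 3.67, 2.31 and 17.2 CPM and hypoxic ones 2.40, 3.16 and 4.51 CPM, with overlap. Normoxic smooth muscle libraries held 4.06 to 4.75 CPM and hypoxic ones 0.0750, 0.299 and 1.02 CPM, resting on 15 counts. No count was seen in hypoxic proliferating cells, and 5 in normoxic ones.

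Omd, a bone keratan sulphate proteoglycan that binds mineral and integrins, was already present in proliferating cells, at 8.12 to 11.9 CPM in normoxia and 11.3 to 12.5 CPM in hypoxia. Normoxic osteoblast libraries held 283, 280, 265 and 434 CPM and hypoxic ones 293, 253 and 323 CPM, which overlapped. In chondrocyte cultures the normoxic libraries held 49.9, 56.6, 54.6 and 106 CPM and the hypoxic ones 23.4, 26.2 and 21.7 CPM, without overlap. The hypoxic level was 2.81-fold lower (log2 −1.5, SE 0.293, adjusted p = 0.0124), and without hypoxic chondrocyte replicate 1 or 3 the adjusted p was 0.0588 or 0.0507. Hypoxic smooth muscle, at 1.80, 3.89 and 2.22 CPM, lay below every other group, proliferating cells included.

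Ogn, a matrix protein known from bone, muscle and vessel wall, was the member with the highest level per kilobase of annotated exon. In CPM its highest group mean (5631) was below that of Bgn (6587). Normoxic osteoblast libraries held 6093, 6229, 6290 and 3914 CPM and hypoxic ones 3481, 3130 and 3238 CPM. The groups did not overlap, and the hypoxic level was 1.72-fold lower (log2 −0.78, SE 0.165, adjusted p = 0.00344). Normoxic smooth muscle libraries held 1777, 1887, 1973 and 1763 CPM, and hypoxic ones 28, 23.2 and 25.2 CPM, 72.6-fold lower (log2 −6.12, SE 0.104, adjusted p = 2.51e-15). Chondrocyte cultures held far less, at 128, 152, 127 and 156 CPM in normoxia and 151, 230 and 186 CPM in hypoxia, with overlap. Proliferating cells held 13.2 to 16.7 CPM in normoxia and 7.51 to 9.13 CPM in hypoxia.

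Epyc, known from the growth plate, was almost absent, with 80 counts in all 28 libraries, and passed the filter on low counts in no comparison. Of these, 56 counts (1.79 CPM) were in normoxic osteoblast replicate 4. No count was seen in hypoxic chondrocyte libraries and 1 in normoxic ones, although those cultures held the highest chondrocyte marker sums.

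Podn, a collagen-binding member known to restrain smooth muscle growth, had an order of its own. Normoxic smooth muscle libraries held 33.8, 35.7, 38.1 and 35.9 CPM, above all other groups. Osteoblast cultures in normoxia held 14.1, 14.2, 11.7 and 8.97 CPM, normoxic chondrocyte libraries 5.40 to 9.66 CPM, and normoxic proliferating libraries 0.596 to 2.14 CPM. Hypoxic proliferating cells held 5.20, 4.78 and 4.83 CPM, 4.37-fold above normoxic ones (log2 2.20, SE 0.341, adjusted p = 0.000104). Hypoxic chondrocyte cultures held 3.48, 2.24 and 1.87 CPM, hypoxic osteoblast cultures 2.63, 2.37 and 2.82 CPM, and hypoxic smooth muscle 5.02, 4.39 and 4.35 CPM. The 4 hypoxic groups thus lay between 1.87 and 5.20 CPM, while the normoxic groups spread from 0.596 to 38.1 CPM.

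The first comparison asks how the genes moved when cells left the proliferating state. In normoxia all 9 members tested rose in each of the 3 cultures. Over all genes, 37.7% were called higher in chondrocyte, 40.9% in osteoblast and 40.8% in smooth muscle cultures, and 37.2%, 37.8% and 38.9% lower. The median log2 change of the members tested was 6.32, 7.69 and 7.0, against −0.0029, 0.07 and 0.03 for all genes tested. The osteoblast median was 6.50 without normoxic osteoblast replicate 4 and 8.24 without normoxic proliferating replicate 4. No library overlapped between groups for any of the 9, where 32.9, 37.0 and 36.6% of all genes tested were likewise higher without overlap, and leaving out any 1 library left all 9 called. The smallest change was that of Bgn, at 2.50 (SE 0.104), 2.33 (SE 0.104) and 1.40 (SE 0.0830) in the 3 cultures in that order. Aspn rose by 8.24 (SE 0.274), 10.83 (SE 0.242) and 8.89 (SE 0.158), and Prelp by 9.57 (SE 0.289), 8.06 (SE 0.416) and 7.90 (SE 0.167). Ogn rose by 3.30 (SE 0.0948) in chondrocyte, 8.61 (SE 0.202) in osteoblast and 7.0 (SE 0.0839) in smooth muscle cultures. Dcn rose by 6.32 (SE 0.382), 5.65 (SE 0.221) and 4.86 (SE 0.138). Lum rose by 8.29 (SE 0.574), 7.69 (SE 1.08) and 7.12 (SE 0.414), from the 5 counts of proliferating cells. Without normoxic proliferating replicate 4 these were 9.21, 8.62 and 8.04, and without normoxic osteoblast replicate 4 the osteoblast value was 6.50. Omd rose by 2.72 (SE 0.259), 4.94 (SE 0.206) and 2.87 (SE 0.112), and Podn by 2.77 (SE 0.359), 3.50 (SE 0.372) and 5.07 (SE 0.257). With library size alone, 34.7% of the genes called in chondrocyte cultures were higher, against 50.3% with TMM. All 3 cultures share the proliferating libraries as their reference.

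**Figure D3:**
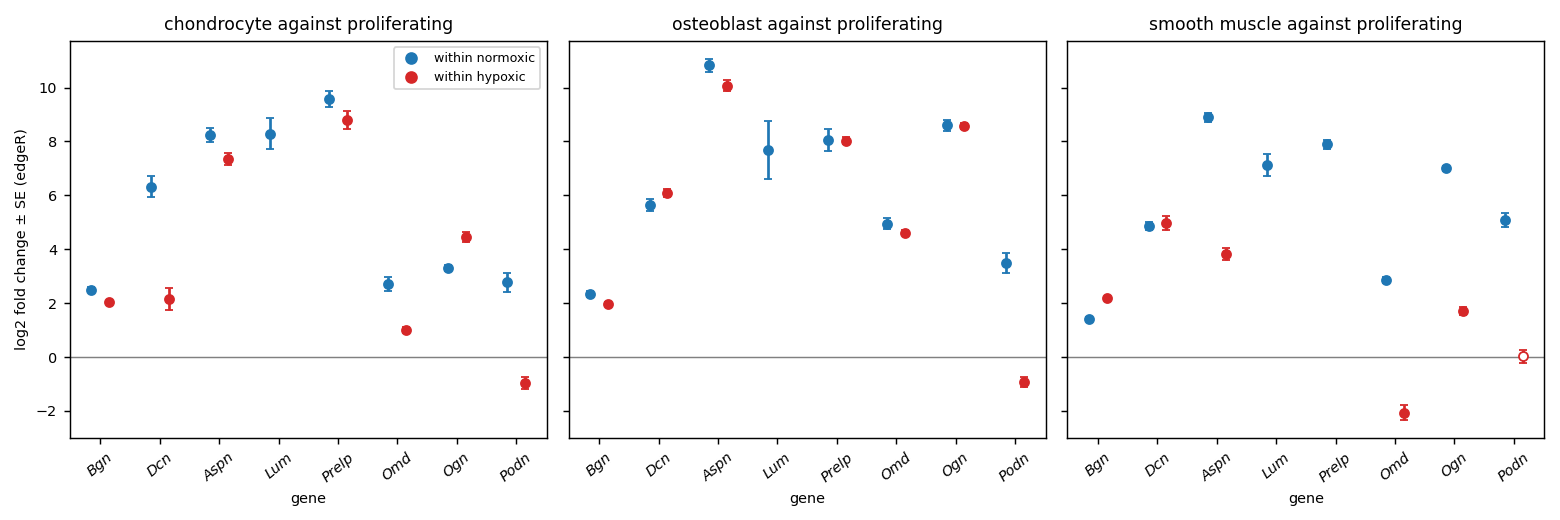
Log2 fold change with SE of each differentiated culture against proliferating cells at the same oxygen level, blue for 21% O2 and red for 0.5% O2, with open points where the adjusted p was 0.05 or more. Fmod, and any point with 3 counts or fewer in a group or not tested, is left out. Podn lies above 0 in all 3 normoxic cultures and at or below 0.02 in all 3 hypoxic ones.

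In hypoxia the same comparison gave a different count. In chondrocyte cultures 7 of 8 members tested rose and Podn fell (log2 −0.97, SE 0.231, adjusted p = 0.0022), with 34.9% of all genes called higher and 34.6% lower. Lum was not tested there: it had 19 counts against none in proliferating cells, at least 6.40-fold higher. Dcn rose by only 2.16 (SE 0.402) and Omd by 1.00 (SE 0.107). In osteoblast cultures 8 of 9 rose and Podn fell (log2 −0.92, SE 0.189, adjusted p = 0.000447), with 36.2% of genes called higher and 35.1% lower. Aspn rose there by 10.07 (SE 0.195), Ogn by 8.57 (SE 0.105) and Prelp by 8.03 (SE 0.117). Lum was at least 99.0-fold higher. In smooth muscle conditions 4 of 7 rose, namely Dcn by 4.97 (SE 0.252), Aspn by 3.82 (SE 0.234), Bgn by 2.19 (SE 0.0598) and Ogn by 1.69 (SE 0.148). These were 3.70, 2.55, 0.91 and 0.42 with library size alone, all still called. Omd fell by 2.06 on the log2 scale (SE 0.267, adjusted p = 3.11e-05). Prelp fell as well, from 110 counts to 1, a ratio of 42.8 with a 95% interval of 7.52 to 1710. Podn did not pass the test (log2 0.02, SE 0.231, adjusted p = 0.945), and with library size alone it was lower (log2 −1.25, adjusted p = 0.000337). Over all genes, 33.8% were called higher and 36.2% lower in that comparison. With library size alone the share of higher genes among those called was 31.8, 38.2 and 15.0% in the 3 hypoxic cultures, against 50.2, 50.8 and 48.3% with TMM.

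The second comparison sets 0.5% against 21% O2 within each state. In proliferating cells 3 of 7 members tested were higher and 1 lower, with 33.1% of all genes called higher and 32.3% lower. Higher were Podn, Prelp (log2 1.82, SE 0.359, adjusted p = 0.000504) and Bgn (log2 0.38, SE 0.0923, adjusted p = 0.00441). Without the filter on low counts the adjusted p of Bgn was 0.0559. Ogn was lower by 1.75-fold (log2 −0.75, SE 0.110, adjusted p = 3.97e-05). Dcn had libraries that did not overlap (0.390 to 0.539 CPM in hypoxia, 0.619 to 0.840 CPM in normoxia) but did not pass the test (adjusted p = 0.194). The 12 hypoxia response genes summed to 7120 to 7560 CPM in these hypoxic libraries and to 1290 to 1370 CPM in the normoxic ones, so the oxygen labels were borne out. In the 3 other states the ranges were 6400 to 8070 CPM in hypoxia and 550 to 3090 CPM in normoxia.

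**Figure D4:**
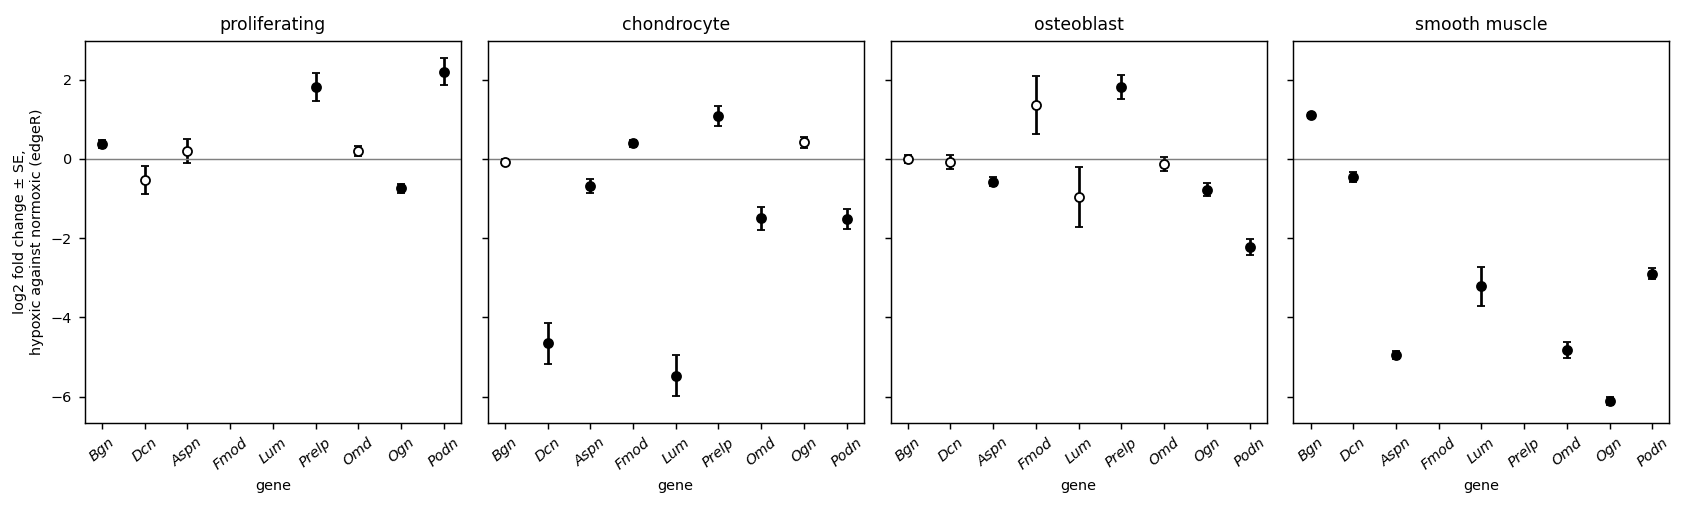
Log2 fold change with SE of hypoxic against normoxic libraries in each of the 4 states, with open points where the adjusted p was 0.05 or more. Genes not tested, and Fmod and Prelp in smooth muscle, where the hypoxic group held 0 and 1 count, are left out. Dcn and Lum lie lowest in chondrocyte cultures, and Prelp lies above 0 in the first 3 states.

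In chondrocyte cultures 2 of 9 members were higher in hypoxia and 5 were lower, where 10.4% of all genes were called higher and 11.8% lower. Dcn and Lum fell most, with the values given above. Podn fell by 1.52 on the log2 scale (SE 0.257, adjusted p = 0.0016), Omd by 1.5 and Aspn by 0.68 (SE 0.187, adjusted p = 0.0338). The call of Aspn was lost without normoxic replicate 2 or 3 or any 1 of the hypoxic libraries (adjusted p up to 0.111), and without the filter on low counts (adjusted p = 0.131). Fmod and Prelp were the higher ones. Bgn (log2 −0.08, SE 0.0845, adjusted p = 0.562) and Ogn (log2 0.42, SE 0.140, adjusted p = 0.0629) did not pass the test, although Ogn did with the DESeq2 Wald test (adjusted p = 0.0128), in a single fit over all 28 libraries (adjusted p = 0.0221) and without hypoxic chondrocyte replicate 1 (adjusted p = 0.00682). The summed chondrocyte markers were also lower in hypoxia, at 5640 to 6020 CPM against 7760 to 16100 CPM. Col11a1 made up 78.0% of that sum in hypoxia and 43.6% in normoxia, and Col2a1 averaged 274 against 3512 CPM. The neural crest markers summed to 269 to 298 against 305 to 339 CPM and the adipocyte ones to 9.56 to 11.2 against 13.6 to 18.5 CPM. The endothelial ones were higher, at 5.28 to 7.62 against 1.6 to 3.02 CPM. Osteoblast, smooth muscle, and tendon and fibroblast marker sums overlapped. Their part in these results was not tested.

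In osteoblast cultures Prelp was higher and Podn, Ogn and Aspn were lower, which makes 1 and 3 of 9 tested, with 27.0% of all genes called higher and 27.3% lower. Podn fell 4.69-fold (log2 −2.23, SE 0.193, adjusted p = 1.79e-05). Fmod had a mean of 315 ± 17.7 CPM (SD, n = 3) in hypoxia and 122 ± 131 CPM (SD, n = 4) in normoxia and did not pass the test (log2 1.36, SE 0.730, adjusted p = 0.161), but did with limma-voom (adjusted p = 0.0329) and in a single fit over all 28 libraries (adjusted p = 0.0153). Without normoxic replicate 4 its difference was 2.49 (adjusted p = 8.25e-12). Bgn, Dcn, Lum and Omd did not pass the test, with log2 values of −0.0029, −0.09, −0.97 and −0.13. Without normoxic replicate 4, Dcn, Lum and Omd turned to 0.114, 0.185 and 0.0678, none of them called. The osteoblast markers summed to 16700 to 18800 CPM in these hypoxic cultures and to 10900 to 16800 CPM in the normoxic ones, with 6 of 9 tested higher and 1 lower. The smooth muscle markers summed to 2220 to 2500 CPM against 3680 to 5200 CPM (6 of 8 lower), and the tendon and fibroblast markers to 248 to 339 CPM against 730 to 1290 CPM (5 of 6 lower), with Tnmd at 0 in both groups. The 6 adipocyte markers summed to 55.8 to 60.3 CPM against 10.5 to 17.6 CPM (2 of 4 higher and 2 lower), with Adipoq at 0 in both. Their part in these results was not tested.

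Under smooth muscle conditions 8 of 9 members were lower in hypoxia and Bgn was higher, with 35.4% of all genes called higher and 40.2% lower. The median log2 change was −4.82 for the members and −0.12 for all genes tested. With library size alone all 9 were lower, with medians of −6.18 and −1.49. Ogn, Aspn (log2 −4.96, SE 0.0990, adjusted p = 6.24e-15) and Omd (log2 −4.82, SE 0.197, adjusted p = 9.91e-12), the chr13 neighbours, were 28.7- to 72.6-fold lower. Lum was 9.42-fold (log2 −3.22, SE 0.493, adjusted p = 2.87e-05; −4.58 without hypoxic replicate 3) and Podn 7.82-fold lower (log2 −2.90, SE 0.137, adjusted p = 5.03e-11). Dcn was 1.44-fold lower (log2 −0.46, SE 0.131, adjusted p = 0.00519), and in a single fit over all 28 libraries that call was lost (adjusted p = 0.0692). Dcn gave −1.83 (adjusted p = 5.76e-09) with library size alone. No library overlapped between the groups for any of the 9, nor for 75.0% of all genes tested. These are the libraries with low smooth muscle marker sums and high mitochondrial ribosomal RNA. Chondrocyte markers summed to 32.8 to 43.4 CPM there against 1290 to 1410 CPM in normoxic smooth muscle (8 of 10 lower), osteoblast markers to 1740 to 1810 against 6180 to 8740 CPM (4 of 7 lower and 2 higher), and adipocyte markers to 5.17 to 6.88 against 52.0 to 64.4 CPM (2 of 4 lower and 1 higher). The part of these in the result was not tested. With library size alone the share of higher genes among those called was 31.8% in chondrocyte, 36.9% in osteoblast and 15.6% in smooth muscle conditions, against 46.9, 49.6 and 46.8% with TMM.

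Whether the change on leaving the proliferating state differed between oxygen levels was tested as an interaction, the hypoxic minus the normoxic log2 change. For chondrocyte cultures 1 of 9 members had a larger change in hypoxia and 4 a smaller one, with 21.6% of all genes called higher and 21.9% lower. Ogn was the larger one (1.18, SE 0.192, adjusted p = 0.000167). The smaller ones were Dcn (−4.13, SE 0.827, adjusted p = 0.0014), Podn (−3.71, SE 0.475, adjusted p = 1.10e-05), Omd (−1.68, SE 0.335, adjusted p = 0.00127) and Bgn (−0.44, SE 0.130, adjusted p = 0.0101). With limma-voom the call of Dcn was lost (adjusted p = 0.0716). Aspn (−0.85, adjusted p = 0.121) was called lower in a single fit over all 28 libraries (adjusted p = 0.0406) and without hypoxic proliferating replicate 2 (adjusted p = 0.0489), and Lum, with no count in hypoxic proliferating cells, with the DESeq2 Wald test (adjusted p = 0.0491, against 0.886). For osteoblast cultures 0 of 9 were higher and 2 lower, with 28.9% of all genes called higher and 25.3% lower. These were Podn (−4.39, SE 0.431, adjusted p = 6.61e-07) and Bgn (−0.34, SE 0.136, adjusted p = 0.0468), of which Bgn lost its call without normoxic osteoblast replicate 1, 2 or 3, any 1 hypoxic proliferating library, or hypoxic osteoblast replicate 1 or 2 (adjusted p up to 0.116). Dcn had an interaction of 0.47 (SE 0.324, adjusted p = 0.234) there, and 0.68 (adjusted p = 0.0143) without normoxic osteoblast replicate 4. Aspn gave −0.71 (adjusted p = 0.0606), and was called lower with the DESeq2 Wald test (adjusted p = 0.0159), with library size alone (adjusted p = 0.0324), and without normoxic osteoblast replicate 4, normoxic proliferating replicate 4 or hypoxic proliferating replicate 2 (adjusted p down to 0.00801). For smooth muscle 1 of 9 was higher and 6 were lower, with 34.9% of genes called higher and 35.5% lower. Ogn (−5.33, SE 0.129, adjusted p = 6.31e-19), Aspn (−5.09, SE 0.290, adjusted p = 4.70e-11), Podn (−5.07, SE 0.335, adjusted p = 2.18e-11) and Omd (−4.98, SE 0.242, adjusted p = 5.17e-14) were among the lower. Prelp (adjusted p = 1.11e-15) and Fmod (adjusted p = 0.00054) were also called, on groups with 3 counts or fewer. The call of Fmod was lost without hypoxic proliferating replicate 1, which held all 3 counts of its group, and in a single fit over all 28 libraries (adjusted p = 0.144). Bgn was higher (0.76, SE 0.112, adjusted p = 2.80e-06), and with library size alone lower (−0.57, adjusted p = 5.83e-05). Dcn (0.10, SE 0.268, adjusted p = 0.775) did not pass the test, and with library size alone was lower (−1.24, adjusted p = 0.000509). The share of higher genes among those called was 49.6% with TMM and 16.6% with library size alone. All 3 interactions subtract the same difference between the proliferating groups, so their signs are not independent. That difference was 2.20 for Podn, 0.38 for Bgn and −0.75 for Ogn. Between oxygen levels in the cultures themselves, Bgn gave −0.08 in chondrocyte and −0.0029 in osteoblast cultures, and Ogn 0.42 in chondrocyte cultures, none of them called.

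**Figure D5:**
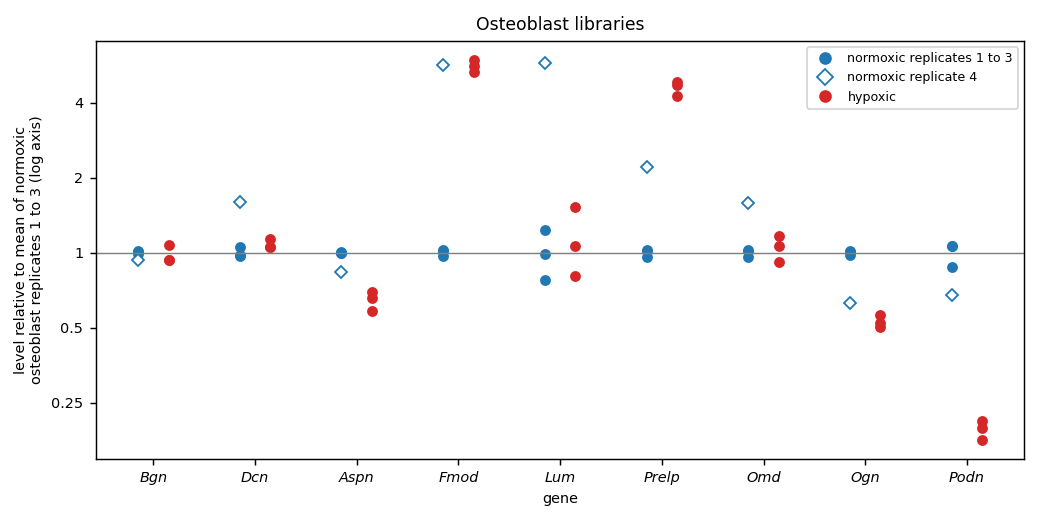
Level of 9 genes in each osteoblast library divided by the mean of normoxic replicates 1 to 3 (log axis), with normoxic replicate 4 as an open diamond and hypoxic libraries in red. Replicate 4 lies 5.67-fold up for Fmod, within the hypoxic range, and 5.78-fold up for Lum, above it.

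Normoxic osteoblast replicate 4 lay outside the range of replicates 1 to 3 for all 10 genes, by the smallest step for Bgn (0.933 of their mean). It did so for 79.2% of the 14533 genes tested in osteoblast cultures. Each of replicates 1 to 3 lay outside the range of the other normoxic libraries for 39.4 to 41.3% of these genes. Fmod was 5.67, Lum 5.78 and Prelp 2.21 times the mean of the others, and Dcn 1.60 and Omd 1.57 times. Ogn was at 0.631, Podn at 0.673 and Aspn at 0.835 of it. For Fmod the value lay within the range of the 3 hypoxic libraries, and for Prelp, Ogn, Podn and Aspn it lay between the hypoxic libraries and replicates 1 to 3. For Dcn, Lum and Omd it lay above both. In this library the chondrocyte markers summed to 3070 CPM against 1830 to 1870 CPM in the others, and the osteoblast markers to 16800 against 10900 to 11200 CPM. The smooth muscle markers summed to 5200 against 3680 to 3850 CPM and the 4 endothelial markers to 2.53 against 0.169 to 0.419 CPM, while the tendon and fibroblast markers were lower, at 730 against 1240 to 1290 CPM. The hypoxia response genes summed to 1020 against 939 to 958 CPM, far from the 6750 to 8070 CPM of hypoxic osteoblast cultures.

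Among the normoxic cultures, the chr13 trio was highest in osteoblast cultures. Against chondrocyte cultures, Ogn was 40.1-fold (log2 5.35, SE 0.187, adjusted p = 6.80e-08), Aspn 6.07-fold (log2 2.62, SE 0.172, adjusted p = 1.95e-06) and Omd 4.72-fold higher (log2 2.26, SE 0.276, adjusted p = 0.000142). Podn was also higher (log2 0.77, SE 0.203, adjusted p = 0.00828), although its libraries overlapped. Fmod was 14.9-fold (log2 −3.87, SE 0.656, adjusted p = 0.00106; −4.99 without osteoblast replicate 4) and Prelp 2.82-fold lower (log2 −1.47, SE 0.307, adjusted p = 0.00299). That made 4 of 9 members higher and 2 lower, against 31.1% and 28.6% of all genes. Without osteoblast replicate 4, Lum was lower too (log2 −1.71, adjusted p = 0.00245), while with it Lum gave −0.56 (adjusted p = 0.48). Dcn gave −0.63 (adjusted p = 0.105), and was called lower with the DESeq2 Wald test (adjusted p = 0.0382), in a single fit over all 28 libraries (adjusted p = 0.0126) and without chondrocyte replicate 1 (adjusted p = 0.034). Against smooth muscle cultures, osteoblast cultures had 5 of 9 higher (Omd, Aspn, Ogn, Bgn and Dcn, by 1.73- to 4.16-fold) and Podn lower (2.93-fold), against 25.3% and 24.4% of all genes. Fmod (1.70, adjusted p = 0.0664) was called higher in a single fit over all 28 libraries (adjusted p = 0.00323) and without osteoblast replicate 1 (adjusted p = 0.0473). Osteoblast replicate 4 held 318.9 CPM of Fmod and replicates 1 to 3 56.2 CPM on average, against 37.35 CPM in smooth muscle cultures. Lum gave 0.58 (adjusted p = 0.468) in that comparison and −0.58 (adjusted p = 0.00808) without osteoblast replicate 4. Chondrocyte against smooth muscle cultures gave 5 of 9 higher (Fmod by 48.6-fold, Prelp, Dcn, Lum and Bgn) and 3 lower (Ogn by 13.2-fold, Podn and Aspn), against 33.0% and 34.7%. Omd gave −0.22 (adjusted p = 0.466) there, and −0.52 (adjusted p = 5.74e-05) without chondrocyte replicate 4. These 3 comparisons share libraries pairwise. In their order, library size alone gave 65.7, 28.4 and 25.6% of called genes higher, against 52.0, 50.9 and 48.8% with TMM. In hypoxia, osteoblast against chondrocyte cultures gave 5 of 9 higher and 2 lower, against 29.0% and 28.6%. The higher ones were Ogn (17.4-fold), Lum (15.7-fold), Dcn (15.1-fold), Omd (12.2-fold) and Aspn (6.53-fold), and the lower ones Fmod (7.62-fold) and Prelp (1.70-fold). Prelp lost its call without hypoxic osteoblast replicate 3 (adjusted p = 0.0543), and the log2 difference of Lum was 3.92 with all libraries and 4.52 without hypoxic chondrocyte replicate 3.

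Neighbours in the genome were compared by direction. Dcn and Lum were both lower in hypoxic chondrocyte and hypoxic smooth muscle cultures than in normoxic ones, and neither passed the test in osteoblast cultures. Aspn, Omd and Podn, which are not their neighbours, were also lower in both. In the 4 normoxic chondrocyte libraries replicates 2 and 3 lay above 1 and 4 for both genes, with Dcn at 4.80, 5.81, 5.30 and 6.48 times the CPM of Lum in replicates 1 to 4. Fmod and Prelp were both higher in hypoxic chondrocyte cultures and both lower in hypoxic smooth muscle, but in hypoxic osteoblast cultures Prelp was higher while Fmod (1.36, adjusted p = 0.161) did not pass with all libraries, but did without normoxic osteoblast replicate 4, as given above. The chr13 trio was lower in hypoxic smooth muscle, like 8 of the 9 members tested, but in chondrocyte cultures Aspn and Omd were lower while Ogn gave 0.42 and did not pass. In osteoblast cultures Aspn and Ogn were lower while Omd, between them, gave −0.13 and did not pass.

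The genes most like each member were read from Pearson's r over the 8 group means of log2 CPM, among 13402 genes. These values describe 8 means of shared libraries and carry no test. Fmod was most like Tll1 (r = 0.99), a protease gene that stood at 253 ± 29.6 CPM (SD, n = 4) in normoxic chondrocyte cultures and at 0.188 ± 0.0653 CPM (SD, n = 4) in normoxic proliferating cells, and next like Galnt10 (r = 0.99). Ogn was most like Gdpd2 (r = 0.98) and Bmp4 (r = 0.98), a bone morphogenetic protein gene with 22.0 ± 6.06 CPM (SD, n = 4) in normoxic osteoblast cultures. Bgn was most like Ehbp1l1 (r = 0.99) and Fam3a (r = 0.98), and Podn like Ppp1r13b (r = 0.93) and Mfap2 (r = 0.93), a microfibril protein gene. The genes most like Aspn were Decr1 and Mkln1os, those most like Dcn Ncmap and Plekhg5, one like Omd was Mks1, and those most like Prelp were Plbd2 and Megf10, with r from 0.96 to 0.99. Ncmap averaged at most 0.467 CPM in any group and Mkln1os at most 1.62 CPM, so their r rests on few counts. Without the hypoxic smooth muscle group only 2 of the 16 genes most like a member remained, Decr1 for Aspn and Tll1 for Fmod. With a prior count of 0.5 in place of 2, Tll1, Bmp4, Plbd2 and Mfap2 were no longer among these 16.

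Genes that work on or with these proteoglycans were taken from 6 lists and tested with TMM scaling only. Their counts stand beside shares of all genes of 37.7, 40.9 and 40.8% higher and 37.2, 37.8 and 38.9% lower in the normoxic chondrocyte, osteoblast and smooth muscle cultures. The other leucine-rich family members had 3 of 5 tested higher in normoxic chondrocyte, 3 of 4 in osteoblast and 4 of 5 in smooth muscle cultures than in proliferating cells, and 1 lower in each. Ecm2, which lies before Aspn on chr13, led in all 3, with 7.13 (log2, SE 0.148) in osteoblast cultures. Of the enzymes that build chondroitin or dermatan sulphate chains, 15, 16 and 14 of 19 rose in the 3 cultures and 2, 1 and 2 fell. Chst11, a chondroitin sulphotransferase gene, led in all 3, by 4.93 (SE 0.230), 4.57 (SE 0.297) and 3.10 (SE 0.203). Under hypoxia this list had 1 higher and 4 lower of 20 in chondrocyte, 2 and 10 of 19 in osteoblast, and 2 and 16 of 19 in smooth muscle conditions. The shares of all genes there were 10.4 and 11.8%, 27.0 and 27.3%, and 35.4 and 40.2%. The leading genes were Xylt1 (−2.43, SE 0.198), Chst15 (−1.78, SE 0.262) and Chst11 (−3.17, SE 0.135) in that order. Keratan sulphate enzymes had 5 of 6 higher and 1 lower in each normoxic culture. Their leading gene was Chst1, which fell by 5.42 on the log2 scale (SE 0.198) in chondrocyte cultures, and Chst2, which rose by 4.18 (SE 0.121) in osteoblast and 4.77 (SE 0.130) in smooth muscle cultures. Chst2 was lower in hypoxia in osteoblast (log2 −2.39, SE 0.201) and smooth muscle conditions (log2 −5.52, SE 0.247).

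All 11 collagens tested rose in each normoxic culture, with medians of 4.25, 2.65 and 1.33 (log2). Col2a1, the cartilage collagen gene, had 2 counts in normoxic proliferating cells and 3512 ± 2343 CPM (SD, n = 4) in normoxic chondrocyte cultures, and it was lower in hypoxic ones (274 ± 90.4 CPM, SD, n = 3, adjusted p = 0.0221). In hypoxic smooth muscle 9 of 11 collagens were lower and 1 higher, led by Col11a1 (log2 −8.02), while in hypoxic osteoblast cultures 5 of 12 were higher and 3 lower, led by Col6a3 (2.17, SE 0.0933). The shares of all genes were 40.2% lower and 35.4% higher in the former and 27.0% higher and 27.3% lower in the latter. Of the proteases, 9 of 10 rose and 1 fell in each normoxic culture. The one that led in chondrocyte and osteoblast cultures was Mmp3, with 7947 counts in proliferating cells and 1 and 18 in those cultures. Mmp13, a collagenase gene of bone and cartilage, was higher in hypoxic osteoblast (3.36, SE 0.0965) and lower in hypoxic chondrocyte cultures (−1.51, SE 0.351). Of 14 ligands and receptors, 11, 12 and 10 rose and 1, 2 and 2 fell in the 3 normoxic cultures, led by Egfr in chondrocyte (5.20, SE 0.441) and Bmp4 in osteoblast (5.86, SE 0.298) and smooth muscle cultures (5.66, SE 0.212). In hypoxia Bmp4 led the fall in smooth muscle (−4.58, SE 0.353) and Egfr that in chondrocyte cultures (−2.36, SE 0.278). Itga2, an integrin subunit gene, was higher in hypoxic proliferating (4.09, SE 0.244) and hypoxic osteoblast cultures (2.01, SE 0.361).

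The authors' deposited tables give log2 fold changes for 10 of the same comparisons. Of 74 values that were called here and listed there, 74 had the same sign, and the median absolute difference was 0.031.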

How the data were processed

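The deposited count table holds whole-number read counts per Ensembl gene for 28 libraries, 4 in each normoxic and 3 in each hypoxic group. Per the submitters' processing notes, the tools named are HISAT2 2.0.5, StringTie 1.3.3b and featureCounts 1.5.0-p3, and the build is mm10. The authors' log2 fold changes were taken from 10 deposited comparison tables, per the file headers, and their 70 columns of normalised values were not used.

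Here, counts were tested with edgeR 4.0.16 (robust quasi-likelihood, TMM factors, filterByExpr with a minimum count of 10 and a total of 15, Benjamini-Hochberg adjusted p under 0.05) over all genes that passed. Each of 14 pairwise comparisons used the libraries of its own 2 groups, and 3 interactions those of 4 groups. The SE is the log2 fold change divided by the square root of F. CPM per kb uses the union of GENCODE M21 exons. A group with 0 counts was set to a floor of 3 counts over the group, and 1 to 3 counts got an exact 95% interval. Likeness used log2 CPM with a prior count of 2. The lowest chi-square per degree of freedom between replicates was 2.89, so none was a duplicate.

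All 10 members are named. From each list, the named gene is the called one with the largest log2 change in a comparison of a normoxic culture with proliferating cells or of the 2 oxygen levels, with a mean count of at least 10 in 1 group. For each member above 10 CPM in some group, the 2 genes with the highest r are named, except 1 that is not reported here. The members and lists were chosen with earlier results of these data known. Alternatives were DESeq2 1.42.0 size factors and Wald test, library size alone, no filter, limma-voom (limma 3.58.1), all 28 libraries in one fit, a replicate block, and each library left out. The fitting script was tested on simulated data.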

Additional observations from a re-analysis of the deposited data

Results flagged for a closer look

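In a group of 4 libraries, a value was picked out where its gap to the nearest library exceeded the 95% critical value of Dixon's test. That holds by chance for about 1 in 20 groups, and 40 groups of 4 gave 14 such values. Of these, 8 came from normoxic osteoblast replicate 4. It was the highest library of its group for Fmod (318.9 CPM), Lum (17.2 CPM), Prelp (158 CPM), Dcn (48.4 CPM), Omd (434 CPM) and Epyc (1.79 CPM), and the lowest for Aspn (3345 CPM) and Ogn (3914 CPM). Normoxic smooth muscle replicate 4 was highest for Fmod (56.2 CPM), normoxic chondrocyte replicate 4 highest for Omd (106 CPM), and normoxic proliferating replicate 4 lowest for Bgn (963 CPM). The other 3 values rest on 1 count each: Fmod (0.0135 CPM) and Epyc (0.0269 CPM) in normoxic proliferating cells and Epyc (0.0364 CPM) in normoxic chondrocyte cultures.

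The change on leaving the proliferating state differed between oxygen levels, by the test of the difference itself, for the following genes (hypoxic minus normoxic log2 change). In chondrocyte cultures these were Dcn (−4.13), Bgn (−0.44), Ogn (1.18), Omd (−1.68) and Podn (−3.71). In osteoblast cultures they were Bgn (−0.34) and Podn (−4.39). In smooth muscle conditions they were Aspn (−5.09), Bgn (0.76), Ogn (−5.33), Omd (−4.98) and Podn (−5.07), with Fmod (adjusted p = 0.00054) and Prelp (adjusted p = 1.11e-15) given by p alone because 1 group held 3 counts or fewer.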

How the results depend on the processing

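Of 2276 refits of 148 member values, 2166 kept their direction and their side of the threshold, 26 gained a call, 29 lost one and 55 turned direction. The cause of these changes was not tested. The DESeq2 Wald test gave no adjusted p for some member values, which these counts leave out. In normoxic osteoblast against normoxic proliferating cells it gave none for 77 of 14434 genes. The count of genes called over all genes stayed within 1.5 times under every alternative run, except for hypoxic against normoxic chondrocyte cultures with 1 library left out, which ran from 2091 (without hypoxic chondrocyte replicate 3) to 3359, against 3157. Library size alone turned the log2 change of Podn in hypoxic smooth muscle against hypoxic proliferating cells (−1.25; −0.0812 with no filter and −0.10 in one fit of all 28 libraries), of Bgn in hypoxic against normoxic smooth muscle (−0.27), normoxic osteoblast against chondrocyte (0.0297) and hypoxic osteoblast against chondrocyte cultures (0.0238), and of Prelp in normoxic osteoblast against smooth muscle cultures (−0.0513). It also turned the interactions of Ogn (−0.11) and Prelp (−0.12) in osteoblast and of Dcn (−1.24) and Bgn (−0.57) in smooth muscle conditions. DESeq2 size factors turned the osteoblast interactions of Ogn (−0.0069; Wald test −0.0064) and Prelp (−0.0045), and gave Bgn in hypoxic against normoxic osteoblast cultures 0.0022, as did the Wald test; limma-voom gave the osteoblast interaction of Fmod 0.88.

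Same-numbered libraries did not deviate together: correlations ran from −0.177 to 0.147, and in 0 of 14 comparisons was every pair above 0.1, so the numbers do not pair the libraries. With the replicate block, which leaves normoxic replicate 4 without a partner and so drops it from comparisons of the oxygen levels, hypoxic against normoxic osteoblast cultures gave 9269 calls against 7890, and Dcn, Lum and Omd turned to 0.12, 0.17 and 0.0659. Prelp lost its call between oxygen levels in chondrocyte cultures (adjusted p = 0.207), and Ogn gained one there (adjusted p = 0.00904), as did Fmod between oxygen levels in osteoblast cultures (adjusted p = 1.62e-14) and between normoxic osteoblast and smooth muscle cultures (adjusted p = 0.0138).

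With 1 library left out, the values that turned direction ran as follows. Between oxygen levels, Aspn in proliferating cells ran from −0.0705 to 0.443, and in osteoblast cultures Dcn from −0.168 to 0.114, Bgn from −0.0684 to 0.0364, Lum from −1.25 to 0.185 and Omd from −0.209 to 0.0678. Podn ran from −0.0540 to 0.0471 in hypoxic smooth muscle against proliferating cells and from −0.151 to 0.331 in hypoxic osteoblast against chondrocyte cultures. In normoxic osteoblast against smooth muscle cultures Lum ran from −0.579 to 0.859 and Prelp from −0.228 to 0.281. Interactions of Fmod ran from −2.79 to 1.72 in chondrocyte and from −1.80 to 2.71 in osteoblast cultures, those of Ogn from −0.122 to 0.0692 and Prelp from −0.176 to 0.401 in osteoblast cultures, and those of Dcn from −0.0491 to 0.178 and Lum from −1.47 to 0.453 in smooth muscle conditions. With limma-voom the last was called (−2.83, adjusted p = 0.0382, against −0.17 and 0.615), but its size depends on the prior count, since 1 group held no count. Of the 16 genes most like a member, 12 remained with a prior count of 0.5. Differences on few counts, as for Epyc, Fmod and Prelp in hypoxic smooth muscle and Lum in hypoxia, are limited by depth.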
